A study of Mus musculus with 6 samples.

Results

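The 10 genes described here belong to the antioxidant programme of the transcription factor NRF2. They comprise *Nfe2l2*, which encodes NRF2, its inhibitor *Keap1*, and 8 genes known as NRF2 targets, *Nqo1*, *Hmox1*, *Gclc*, *Gclm*, *Gsr*, *Txnrd1*, *Srxn1* and *Prdx1*. They were chosen by name, with earlier results of these data known, and were found by symbol. They made up 10 of the 46983 genes listed in an RNA-seq table of mouse splenic B cells. The table compared 3 WT with 3 *Hif1a* KO libraries to ask how loss of HIF-1α changes gene expression while B cells switch to IgA. In the *Hif1a* KO mice, floxed *Hif1a* is deleted by cre expressed from *Mb1* (*Cd79a*), a gene switched on early in the B lineage. The WT mice were littermates, either cre-positive with a single floxed allele or cre-negative with both alleles floxed, and the source of each WT library is not given. All mice were on a C57BL/6 background, and their age is not given. Both groups received 5 μg/ml LPS plus 10 ng/ml of each of TGF-β, IL-5 and BAFF and were harvested on day 3. LPS is a bacterial activator of B cells, BAFF a survival factor, and IL-5 and TGF-β favour IgA.

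NRF2 is held at a low level in resting cells because KEAP1 binds it and passes it to the CUL3 ubiquitin ligase for degradation. When reactive electrophiles or oxidants modify cysteines of KEAP1, NRF2 accumulates, pairs with a small MAF protein and binds antioxidant response elements in its target genes. Control is thus exerted largely on the protein. The targets make glutathione, keep thioredoxin and peroxiredoxins reduced, and remove quinones and heme. Activated B cells divide rapidly and fold large amounts of immunoglobulin, both of which produce oxidants.

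FPKM, the unit of the table, scales the reads of a gene by its length and by the depth of the library, so levels of different genes can be compared per length. The depth, read back from the FPKM, was 37222477, 30955753 and 25973237 reads in WT replicates 1 to 3 and 25030210, 34356000 and 29869848 reads in KO replicates 1 to 3. *Hif1a* itself (ENSMUSG00000021109, chr12:73901375-73947530, mm10) had an FPKM of 36.5, 49.8 and 45.8 in WT replicates 1 to 3 and of 46.5, 45.6 and 52.8 in KO replicates 1 to 3. The groups overlapped, and because FPKM pools the reads of all exons, the deletion of the floxed part cannot be checked with it. The B-cell markers were abundant in every library, with a summed FPKM of 8 markers between 5703 and 7332 and *Cd74*, the invariant chain of MHC class II, at 2773 to 3426. The labelled cell type was thus borne out by its markers, although their levels varied. In 4 of the 8 (*Cd79b*, *Ms4a1*, *Cd22* and *Ebf1*) WT replicates 2 and 3 were below the other 4 libraries, against 17.0% of all genes tested. Without WT replicate 1, *Cd79b* and *Ebf1* were called higher in KO libraries by limma, against 3.64%. *Cd79a*, whose locus drives the cre, had an FPKM of 1203, 739 and 779 in WT replicates 1 to 3 and of 498, 1074 and 611 in KO replicates 1 to 3, and the groups overlapped.

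WT replicate 1 did not lie with the other WT libraries. On the first principal component of the 13312 genes tested, which held 54.7% of the variance, WT replicates 2 and 3 stood at 26.2 and 25.9, whereas WT replicate 1 stood at -15.7 and the KO libraries at -9.86, -7.10 and -19.5. On the second component, with 16.7% of the variance, KO replicate 2 stood apart at 22.6, and the other 5 libraries lay between -9.82 and -1.54. Log2 fold changes and calls are therefore given with and without WT replicate 1, and without KO replicate 2 where that turned a sign. The labels do not say whether the libraries came from separate animals, so p-values measure only the spread between these samples.

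The mRNAs of the regulators were level across the libraries. *Nfe2l2* (ENSMUSG00000015839, chr2:75675513-75704641, minus strand) had an FPKM of 32.9, 33.9 and 32.3 in WT replicates 1 to 3 and of 31.3, 30.3 and 34.7 in KO replicates 1 to 3. *Keap1* (ENSMUSG00000003308, chr9:21229730-21239361, minus strand) had an FPKM of 21.6, 20.1 and 20.03 in WT replicates 1 to 3 and of 19.9, 21.7 and 21.2 in KO replicates 1 to 3. No library stood out for either gene, and the groups overlapped in both. The log2 fold change, on log2(FPKM + 1) and as KO minus WT throughout, was -0.04 (SE 0.07) for *Nfe2l2* and 0.02 (SE 0.07) for *Keap1*. With limma and Benjamini-Hochberg adjustment, the adjusted p was 0.838 for *Nfe2l2* and 0.903 for *Keap1*. Each fold change was within its standard error, and that of *Keap1* was -0.0010 without KO replicate 2. An antisense gene, *Gm16754*, overlaps *Keap1* with an FPKM of 0.827 to 1.93, and without a stated strand option the reads of the pair cannot be told apart. Genes overlapping *Nfe2l2*, *Gclm* and *Gsr* had an FPKM of at most 0.676, 0.143 and 0.802. *Eid3*, *Gm38560* and *Gm47073* overlap *Txnrd1* and are not among the genes listed with an FPKM, so their part in its reads is uncertain.

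Promoters of 7 of the 10 genes, 9 sequences in all, could be read from RefSeq (GRCm38.p6), each from 250 bases before to 50 bases after a start of the gene. They are shown because the 8 targets were high in the same libraries, as described next. *Hmox1*, *Gclc* and *Gsr* were not in the promoter table used here. The letters TGACNNNGC, the core of the antioxidant response element, were searched on both strands and found in 5 of the 9 promoters, 1 each of *Nfe2l2*, *Gclm*, *Txnrd1*, *Srxn1* and *Prdx1*, and in 12.4% of all 32851 promoters. The windows of *Nqo1* and *Keap1* did not contain these letters. After the promoters had been read, TGAGTCA, the letters of the AP-1 element, was searched as well. It was found in 2 of the 9 promoters, 2 times each in *Srxn1* and *Prdx1*, and in 5.20% of all promoters, and in *Prdx1* 1 of these matches lies within the match to TGACNNNGC. The letters ACGTG or GCGTG, the core of the hypoxia response element, were found in 6 of the 9 promoters, those of *Keap1*, *Gclm*, *Srxn1* and all 3 of *Txnrd1*, and in 43.8% of all promoters. Below, capitals mark TGACNNNGC and TGAGTCA on either strand, in 4 targets and, for contrast, in the level *Nfe2l2*.
*Gclm* promoter, chr3:122245307-122245606, plus strand: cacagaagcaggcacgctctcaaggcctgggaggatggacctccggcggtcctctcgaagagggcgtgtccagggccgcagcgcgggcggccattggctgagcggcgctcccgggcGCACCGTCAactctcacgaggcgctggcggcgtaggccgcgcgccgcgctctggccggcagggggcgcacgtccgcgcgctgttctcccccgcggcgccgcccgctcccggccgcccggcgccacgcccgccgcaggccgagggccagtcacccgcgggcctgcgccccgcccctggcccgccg
*Txnrd1* promoter, chr10:82858956-82859255, plus strand: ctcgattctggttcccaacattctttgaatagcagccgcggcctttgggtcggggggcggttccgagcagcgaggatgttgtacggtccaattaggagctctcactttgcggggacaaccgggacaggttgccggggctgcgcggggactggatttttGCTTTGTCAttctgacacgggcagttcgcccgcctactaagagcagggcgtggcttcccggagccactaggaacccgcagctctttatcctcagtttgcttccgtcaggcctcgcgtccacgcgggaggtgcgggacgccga
*Srxn1* promoter, chr2:152105274-152105573, plus strand: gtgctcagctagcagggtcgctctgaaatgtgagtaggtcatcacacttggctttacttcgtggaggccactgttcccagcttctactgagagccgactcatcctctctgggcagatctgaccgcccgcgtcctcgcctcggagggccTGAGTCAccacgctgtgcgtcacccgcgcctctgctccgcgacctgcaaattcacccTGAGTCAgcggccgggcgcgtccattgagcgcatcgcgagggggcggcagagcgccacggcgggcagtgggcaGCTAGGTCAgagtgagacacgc
*Prdx1* promoter, chr4:116685349-116685648, plus strand: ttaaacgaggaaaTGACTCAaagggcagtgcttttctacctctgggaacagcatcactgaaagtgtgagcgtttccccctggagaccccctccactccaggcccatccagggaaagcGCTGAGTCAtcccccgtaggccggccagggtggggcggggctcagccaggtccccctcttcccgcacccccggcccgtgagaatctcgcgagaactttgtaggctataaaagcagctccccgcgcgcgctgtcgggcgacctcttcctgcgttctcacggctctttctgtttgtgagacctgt
*Nfe2l2* promoter, chr2:75704614-75704913, minus strand: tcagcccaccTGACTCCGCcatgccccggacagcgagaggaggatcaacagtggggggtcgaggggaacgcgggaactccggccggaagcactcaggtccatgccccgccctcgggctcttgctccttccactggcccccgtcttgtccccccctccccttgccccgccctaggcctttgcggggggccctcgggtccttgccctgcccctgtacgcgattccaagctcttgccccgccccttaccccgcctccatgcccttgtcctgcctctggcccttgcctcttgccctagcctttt
Counted from the start, the match to TGACNNNGC lies on the opposite strand from -134 to -126 in *Gclm*, from -92 to -84 in *Txnrd1*, in 1 of its 3 promoters, and from -133 to -125 in *Prdx1*. In *Srxn1* it follows the start, and the TGAGTCA copies lie from -102 to -96 and from -45 to -39. The latter copy is followed by the letters GC, and forms of the antioxidant response element core other than TGACNNNGC were not searched. The promoter of *Nfe2l2*, whose mRNA was level, also contains the letters TGACNNNGC, from -240 to -232 on its own strand. A match describes the sequence only.

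*Nqo1* and *Hmox1* differed most between libraries. *Nqo1* (ENSMUSG00000003849, chr8:107388225-107403206, minus strand) encodes a reductase that takes quinones to hydroquinones without a radical intermediate. Its FPKM was 0.640, 7.70 and 5.88 in WT replicates 1 to 3 and 0.566, 0.5998 and 0.604 in KO replicates 1 to 3. WT replicates 2 and 3 were high, at 13.05 and 9.96 times the KO mean, while WT replicate 1 lay just above the highest KO library, so that the groups did not overlap. These values rest on at least 370 and 237 reads in WT replicates 2 and 3 and on at least 22 to 37 in the other 4 libraries, the fewest whole reads that the FPKM allow. The mean was 4.74 ± 3.66 in WT and 0.590 ± 0.0207 in KO libraries (SD, n = 3 each).

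*Hmox1* (ENSMUSG00000005413, chr8:75093621-75100589, plus strand) encodes heme oxygenase 1, which opens heme to biliverdin, iron and carbon monoxide and is abundant in spleen macrophages that clear red cells. Its FPKM was 4.77, 99.8 and 49.5 in WT replicates 1 to 3 and 5.56, 5.32 and 6.12 in KO replicates 1 to 3. WT replicate 2 was 17.6 and WT replicate 3 8.74 times the KO mean, but WT replicate 1 had the lowest value of all 6 libraries, so the groups overlapped. The mean was 51.3 ± 47.5 in WT and 5.67 ± 0.410 in KO libraries (SD, n = 3 each), and the difference between the means was smaller than the WT SD. In bulk RNA, fewer cells of a type and less RNA per cell cannot be told apart.

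**Figure D1:**
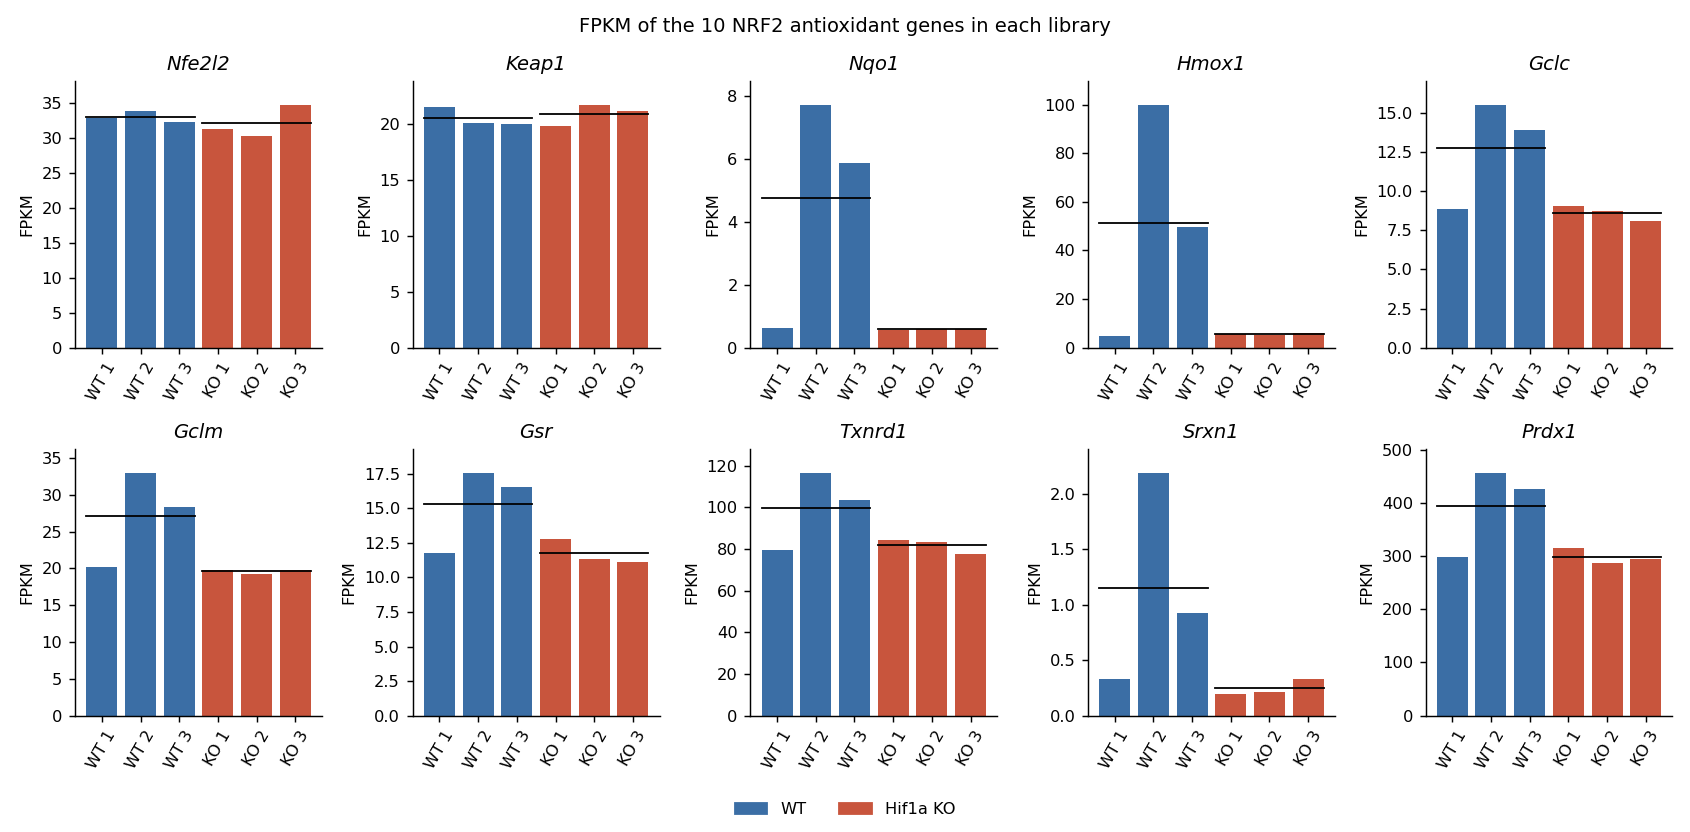
FPKM (y axis, each from 0) of the 10 genes in each library (x axis), with WT in blue and *Hif1a* KO in red and a black line at each group mean. In the 8 targets WT replicates 2 and 3 are the highest bars and WT replicate 1 lies near the KO bars, while *Nfe2l2* and *Keap1* are level.

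Markers of other cell types also differed between these libraries. The 18 macrophage and monocyte markers summed to an FPKM of 95.3, 210.3 and 144 in WT replicates 1 to 3 and to 94.4, 99.3 and 104 in KO replicates 1 to 3. Of the 18, 10 reached the mean FPKM of 0.5 needed for testing, 4 of them (*C1qa*, *Marco*, *Spic* and *Vcam1*) only through WT replicates 2 and 3. Of the other 6, WT replicates 2 and 3 were above the remaining libraries in 3 (*Lyz2*, *Adgre1* and *Cd68*), against 30.5% of all genes tested, and below them in *Cd5l*. *Adgre1*, the most abundant, ranged from 55.5 to 91.1, and *Fcgr1* was at 0 in 4 libraries. The 7 erythroid markers summed to 3.35, 16.5 and 13.6 in WT replicates 1 to 3 and to 2.96, 4.84 and 3.12 in KO replicates 1 to 3, with *Hbb-bs*, a β-globin, at 8.05 and 5.60 in WT replicates 2 and 3 and below 1 elsewhere. Of the 7, 3 were tested, *Hba-a1* only through WT replicates 2 and 3, and of the other pair *Hbb-bs* was highest in these libraries, whereas *Hbb-bt* was highest in KO replicate 2, at 3.77. Both sums were thus highest in the libraries with most *Hmox1*. The 10 neutrophil markers went another way, with a sum of 43.4 in WT replicate 1, where *S100a9* had 19.9, and of at most 0.606 in any other library, where *S100a9* was at 0. The 6 dendritic cell markers, with *Flt3* the most abundant at 4.74 to 7.74, summed to 16.8, 16.2 and 17.9 in WT replicates 1 to 3 and to 12.95, 12.04 and 12.7 in KO replicates 1 to 3, so that all WT sums, that of WT replicate 1 included, lay above the KO sums. Of the 4 tested, the groups did not overlap in 1, *Siglech*, against 6.03% of all genes tested in this direction, and it was called neither with nor without WT replicate 1. T-cell markers (6 genes, *Trac* at most 0.685), NK-cell markers (4 genes, *Klrb1c* at most 0.111) and basophil and mast-cell markers (4 genes, *Ms4a2* at most 0.388) were near 0. The plasma-cell markers, with *Mzb1* the most abundant, summed to 1281, 834 and 791 in WT replicates 1 to 3 and to 1216, 902 and 1580.5 in KO replicates 1 to 3, and so were lowest in WT replicates 2 and 3. With all 6 libraries weighted equally, limma called none of these markers, as it called 0 of all genes, with 929 at an unadjusted p under 0.05. Without WT replicate 1 it called 1 of 6 macrophage (*Lyz2*), 1 of 2 erythroid (*Hbb-bs*) and 1 of 4 dendritic cell markers (*Zbtb46*) lower. These counts leave out *C1qa*, *Marco*, *Spic*, *Vcam1* and *Hba-a1*, also called lower, which passed the filter only through WT replicates 2 and 3. The share of all genes tested called lower was 5.75%. Higher were 2 plasma-cell markers (*Jchain* and *Prdm1*), against 3.64%. With and without WT replicate 1, the log2 fold change of *Lyz2* was -2.97 and -3.79, and that of *Hbb-bs* -1.49 and -2.28. The study's methods describe follicular B cells sorted to a high but not complete purity. The part of these cell types in the values of *Hmox1* or the other targets was not tested.

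**Figure D2:**
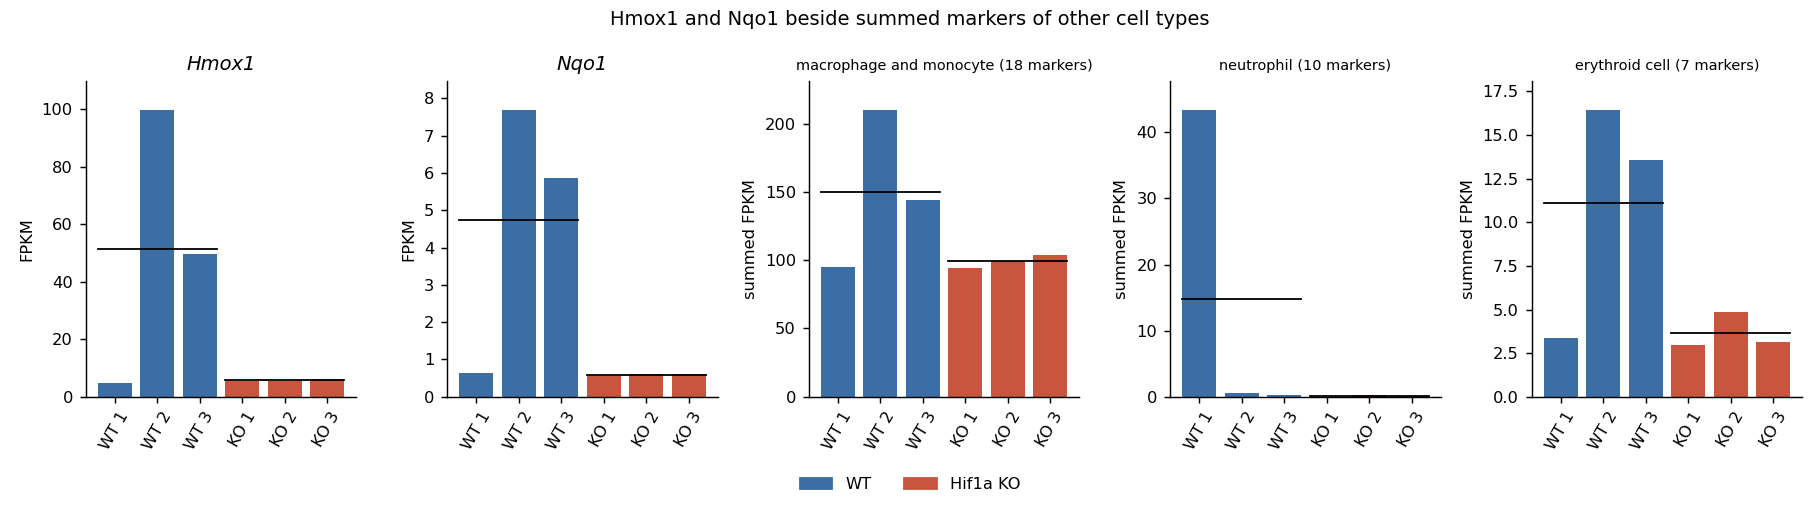
FPKM of *Hmox1* and *Nqo1* and summed FPKM of the macrophage and monocyte, neutrophil and erythroid markers (y axes, each from 0) in each library (x axis), WT in blue, *Hif1a* KO in red and black lines at group means. The macrophage and erythroid sums are highest in WT replicates 2 and 3, and the neutrophil sum is 43.4 in WT replicate 1.

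The genes of glutathione synthesis showed the same order at a smaller size. *Gclc* (ENSMUSG00000032350, chr9:77754535-77794485, plus strand), the catalytic subunit of glutamate-cysteine ligase, had an FPKM of 8.84, 15.5 and 13.9 in WT replicates 1 to 3 and of 9.03, 8.74 and 8.09 in KO replicates 1 to 3. *Gclm* (ENSMUSG00000028124, chr3:122245557-122270732, plus strand), the modifier subunit, had 20.1, 32.9 and 28.4 in WT replicates 1 to 3 and 19.8, 19.2 and 19.8 in KO replicates 1 to 3. In both subunits WT replicates 2 and 3 were high and WT replicate 1 was at the level of the KO libraries, within their range in *Gclc* and just above it in *Gclm*. *Gsr* (ENSMUSG00000031584, chr8:33652523-33698163, plus strand), which returns oxidized glutathione to its reduced form, had 11.8, 17.6 and 16.6 in WT replicates 1 to 3 and 12.8, 11.3 and 11.1 in KO replicates 1 to 3. Here too WT replicate 1 lay inside the KO range, and the groups overlapped. WT and KO means were 12.7 ± 3.47 and 8.62 ± 0.484 for *Gclc*, 27.2 ± 6.48 and 19.6 ± 0.347 for *Gclm* and 15.3 ± 3.09 and 11.7 ± 0.920 for *Gsr* (SD, n = 3 each). In all 3 genes the difference between the means was larger than the WT SD.

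In the thioredoxin branch, *Prdx1* (ENSMUSG00000028691, chr4:116685544-116700822, plus strand) encodes a peroxiredoxin that reduces hydrogen peroxide. Its FPKM was 299 in WT replicate 1, 456 in WT replicate 2 and 426 in WT replicate 3, and 315, 288 and 295 in KO replicates 1 to 3. *Txnrd1* (ENSMUSG00000020250, chr10:82833951-82897712, plus strand), the cytosolic reductase of thioredoxin, had 79.5, 116 and 103 in WT replicates 1 to 3 and 84.1, 83.6 and 77.8 in KO replicates 1 to 3. WT replicates 2 and 3 were again highest for both genes, and WT replicate 1 lay among the KO libraries, so that the groups overlapped. *Srxn1* (ENSMUSG00000032802, chr2:152105516-152111376, plus strand) encodes sulfiredoxin, which repairs overoxidized peroxiredoxins, and had 0.333, 2.19 and 0.922 in WT replicates 1 to 3 and 0.198, 0.216 and 0.332 in KO replicates 1 to 3. The groups did not overlap, but WT replicate 1 and KO replicate 3, with at least 15 and 12 reads, were nearly equal. *Srxn1* reached the mean FPKM of 0.5 only through WT replicates 2 and 3, so counts that include it are also given for the other 9 genes. The means were 394 ± 83.3 and 299 ± 13.9 for *Prdx1*, 99.8 ± 18.7 and 81.8 ± 3.50 for *Txnrd1* and 1.15 ± 0.948 and 0.249 ± 0.0725 for *Srxn1* in WT and KO libraries (SD, n = 3 each). For *Txnrd1* and *Srxn1* the difference between the means was smaller than the WT SD, and for *Prdx1* it was larger.

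**Figure D3:**
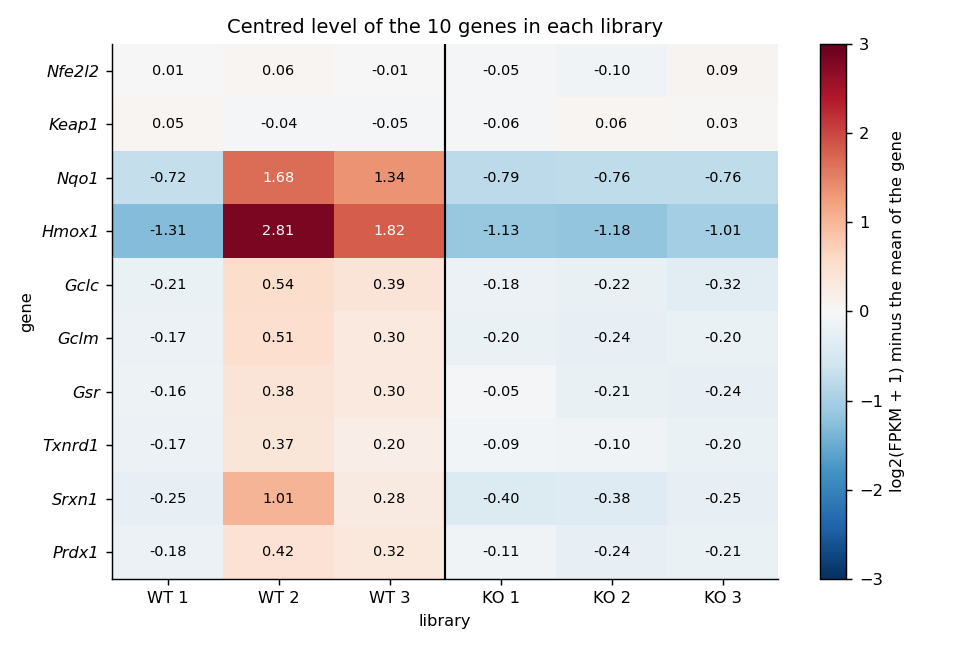
Level of each gene (rows) in each library (columns) as log2(FPKM + 1) minus the mean of the gene over the 6 libraries, in color and as a number. WT replicates 2 and 3 are above the mean in the 8 targets, with *Hmox1* highest at 2.81 and 1.82.

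The 8 targets therefore shared an order of libraries. WT replicates 2 and 3 were both above the other 4 libraries in 8 of the 10 genes, or in 7 of 9 without *Srxn1*, against 30.5% of all genes tested. These libraries were singled out after their values had been seen, so this is a description without a test. WT replicate 2 was above WT replicate 3 in all 8 targets, by a ratio of 1.06 in *Gsr* and 1.07 in *Prdx1* up to 2.02 in *Hmox1* and 2.37 in *Srxn1*. For *Lyz2*, a lysozyme of macrophages and other myeloid cells, this ratio was 2.22. Other macrophage and monocyte markers tested had lower ratios, 0.771 in *Cd5l*, 1.12 in *Adgre1*, 1.46 in *Mrc1*, 1.49 in *Cd68* and 1.53 in *Ly6c2*. Markers that passed the filter only through WT replicates 2 and 3 are left out here. WT replicate 1 fell inside the KO range in 6 of the 10 genes, the regulators included. Shares of all genes tested are not given for this count or for that of WT replicate 2 above WT replicate 3. Both thus describe these genes only.

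The genes ranged widely in level. Averaged over the 6 libraries, the FPKM was 347 for *Prdx1*, 90.8 for *Txnrd1*, 32.6 for *Nfe2l2*, 28.5 for *Hmox1*, 23.4 for *Gclm*, 20.8 for *Keap1*, 13.5 for *Gsr*, 10.7 for *Gclc*, 2.66 for *Nqo1* and 0.698 for *Srxn1*. From *Prdx1* to *Txnrd1*, from *Txnrd1* to *Nfe2l2*, from *Keap1* to *Gsr* and from *Gclc* to *Nqo1*, the ranges over the 6 libraries did not overlap. *Nfe2l2*, *Hmox1*, *Gclm* and *Keap1* overlapped their neighbours in this order, and *Hmox1* was above *Nfe2l2* in 2 libraries and above *Gclm* in 2. In WT replicate 1 and the KO libraries *Hmox1* had 4.77 to 6.12, below *Keap1*, *Gsr* and *Gclc* as well. Its place in the order thus rests on WT replicates 2 and 3. *Gsr* exceeded *Gclc* and *Nqo1* exceeded *Srxn1* in all 6 libraries, although their ranges overlapped.

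With all 6 libraries weighted equally, none of the 10 genes passed an adjusted p of 0.05, whereas 7 did with library weights. Estimated from the same values, these weights were 0.238 for WT replicate 1 and 2.42 and 2.08 for WT replicates 2 and 3. The values below are without library weights. The log2 fold change was -2.21 (SE 0.95) for *Hmox1*, -1.54 (SE 0.58) for *Nqo1*, -0.69 (SE 0.30) for *Srxn1* and between -0.48 for *Gclc* and -0.27 for *Txnrd1* in the other 5 targets. On the scale of FPKM, the WT mean was 9.06 times the KO mean for *Hmox1*, 8.03 times for *Nqo1* and 1.22 to 1.48 times for *Gclc*, *Gclm*, *Gsr*, *Txnrd1* and *Prdx1*. Each of the 8 targets had an adjusted p of 0.626 by limma and Benjamini-Hochberg over 13312 genes. The value of *Srxn1* depended on the scale, with -1.55 at a pseudocount of 0.1 and -1.73 by voom, and it was -0.36 without WT replicate 2. Without that library, *Hmox1* had -1.36, *Nqo1* -1.08 and the other 5 between -0.33 (*Gclc*) and -0.15 (*Txnrd1*), and at a pseudocount of 0.1 *Nqo1* had -2.24. Counted over the 10, 9 had a fold change below 0, or 8 of 9 without *Srxn1*, against 57.9% of all genes tested, and 4 (*Nqo1*, *Gclc*, *Gclm* and *Prdx1*) were lower at an unadjusted p under 0.05, against 4.50%. The latter count was 8 without WT replicate 1, or 7 of 9 without *Srxn1*, against 18.9% of all genes tested in that fit. It was 0 without any other single library. In 3 of the 10, or 2 of 9 without *Srxn1*, the KO values lay all below the WT values, against 6.03%. The median log2 fold change of the 10 was -0.40 (-0.37 without *Srxn1*), beside -0.03 over all genes tested, and without WT replicate 1 it was -0.59, beside -0.05. *Hmox1* had the third lowest fold change of the 13312, and *Nqo1* was number 18. Because the 10 genes were chosen with earlier results of these data known, these counts, and those without WT replicate 1 below, are descriptions without a test.

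**Figure D4:**
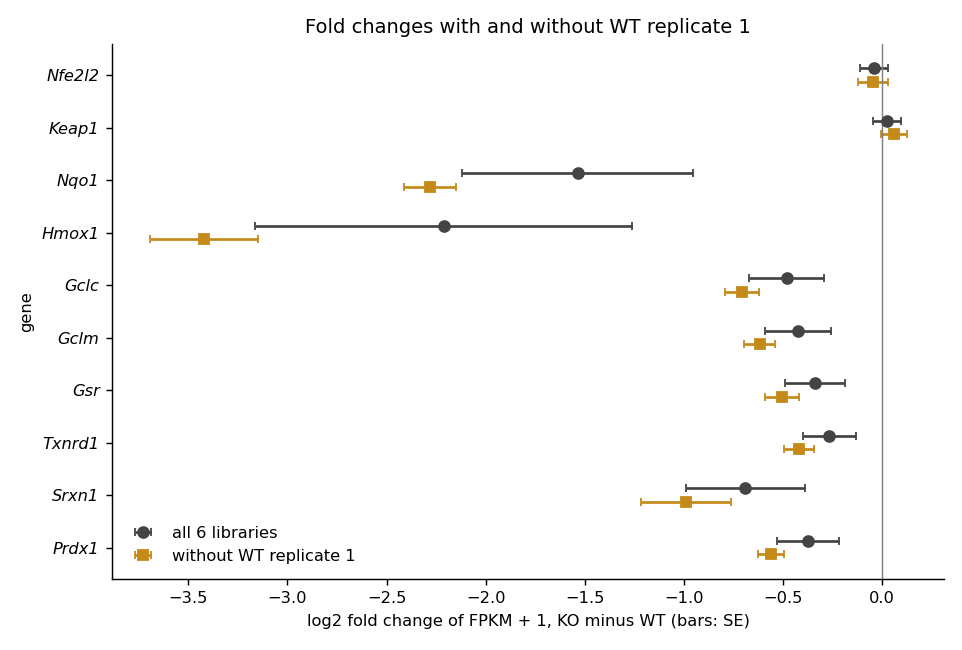
Log2 fold change of FPKM + 1, KO minus WT (x axis), for each gene (y axis), with bars of 1 SE, from all 6 libraries (circles) and without WT replicate 1 (squares). The 8 targets lie further below 0 without that library, *Hmox1* at -3.42 against -2.21, and *Nfe2l2* and *Keap1* lie near 0 in both.

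The calls depended on WT replicate 1. Without it, 7 of the 10 genes were lower at an adjusted p under 0.05 by limma and Benjamini-Hochberg, against 5.75% of all genes tested. These were *Nqo1* (-2.28, SE 0.13), *Hmox1* (-3.42, SE 0.27), *Gclc* (-0.71, SE 0.08), *Gclm* (-0.62, SE 0.08), *Prdx1* (-0.56, SE 0.07), *Gsr* (-0.51, SE 0.08) and *Txnrd1* (-0.42, SE 0.07), all as log2 fold changes. The same fit called the macrophage marker *Lyz2*, the erythroid marker *Hbb-bs* and the dendritic cell marker *Zbtb46* lower as well. The other markers called lower above passed the filter only through WT replicates 2 and 3. By limma and Benjamini-Hochberg, the adjusted p was 0.00135 for *Nqo1* and 0.00390 for *Hmox1* without WT replicate 1, and reached 1 in both over all alternatives. *Srxn1*, with -0.99 (SE 0.23), missed the threshold at an adjusted p of 0.0502 by limma and Benjamini-Hochberg, the lowest of a range up to 1. *Nfe2l2* and *Keap1* were at -0.04 (SE 0.08) and 0.06 (SE 0.07), beside -0.04 and 0.02 with all 6 libraries. Leaving out WT replicate 2, WT replicate 3 or any KO replicate gave 0 of the 10 genes at an adjusted p under 0.05 with limma, and 0 also at an unadjusted p under 0.05. The fit without WT replicate 1 sets WT replicates 2 and 3 against the KO libraries, and that library was doubted because of its values. Why it lay apart from the other WT libraries was not tested, and its label cannot be checked with the FPKM of *Hif1a*.

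Across all genes, limma with Benjamini-Hochberg adjustment called 0 of 13312 (0%) with all 6 libraries weighted equally, and 929 had an unadjusted p under 0.05. Voom on the recovered reads also called 0, with 830 at an unadjusted p under 0.05. With library weights limma called 1449 genes, 908 lower and 541 higher. Without WT replicate 1, 1251 genes were called, 766 lower and 485 higher, and 3979 had an unadjusted p under 0.05. The latter number was 258 without WT replicate 2, 241 without WT replicate 3, 543 without KO replicate 1 and 488 without KO replicate 3, and without KO replicate 1 a single gene (1) was called. The smallest two-sided p of an exact permutation test with 3 against 3 libraries is 0.1.

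Likeness between genes was measured as the root mean square difference of centred log2(FPKM + 1) over the 6 libraries, among the 9275 genes whose FPKM averaged 5 or more. *Hmox1*, which varied most of the 10, was most like *Cth* (0.31), a cysteine-producing enzyme of transsulfuration, followed by *Trib3* (0.47), *Cdkn1a* (0.61), *Asns* (0.62) and *Lyz2* (0.69). *Cth* had an FPKM of 5.54, 69.6 and 62.8 in WT replicates 1 to 3 and of 6.26, 6.75 and 5.03 in KO replicates 1 to 3. *Lyz2* had 6.18, 58.3 and 26.2 in WT replicates 1 to 3 and 0.5996, 2.23 and 3.70 in KO replicates 1 to 3. The pair thus had high values in the same libraries as *Hmox1*, with WT replicates 2 and 3 close together in *Cth* and apart in *Lyz2*. The genes ranked between them were closer to *Cth* in this respect. In WT replicates 2 and 3, *Trib3* had 20.5 and 18.9, *Cdkn1a* 122 and 110, and *Asns* 142 and 142. WT replicate 1 had 1.96, 21.6 and 27.5 for these genes, and all KO values were below those of WT replicates 2 and 3. What these genes share with *Hmox1* besides this order of libraries was not tested. *Nfe2l2* was most like *Scfd2* (0.0068), *Atp6v1b2* (0.014), *1110008L16Rik* (0.014), *Tmed4* (0.017) and *Plcl2* (0.019), and small differences are common among genes that vary little.

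Beyond the 10 genes, 6 lists of related genes were examined, with 82 of 93 members tested. Of the 82, 49 were lower and 33 higher in KO libraries, and the median log2 fold change was -0.04, close to that of all genes. None was called, and 11 were lower and 2 higher at an unadjusted p under 0.05, against 4.50% and 2.48% of all genes tested. Without WT replicate 1, 12 were called lower and 2 higher by limma with Benjamini-Hochberg adjustment, against 5.75% and 3.64%. Lower were *Nfe2l1*, *Mafg*, *Slc7a11*, *Slc3a2*, *Glrx3*, *Abcc1*, *Txn1*, *Sesn2*, *Sod1*, *Akr1b10*, *Mthfd1* and *Mthfd2*, and higher were *Mgst1* and *Sesn1*. Of the 82, *Slc7a11* and *Msrb3* passed the filter only through the libraries where they were high, and the other 80 gave 48 lower and 32 higher, 11 and 1 at an unadjusted p under 0.05, and 11 and 2 called without WT replicate 1. The lists as a whole thus lay nearer to the background than the 8 targets, and single members stood out.

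**Figure D5:**
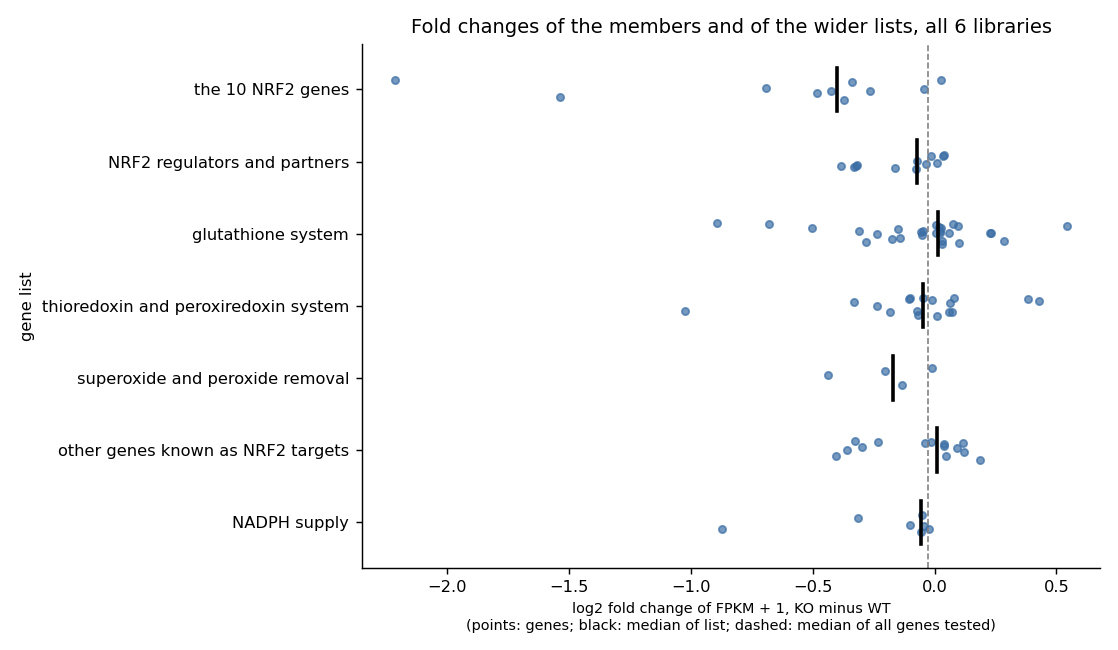
Log2 fold change of FPKM + 1, KO minus WT (x axis), of the genes tested in each list (y axis, points spread vertically for clarity), with black lines at list medians and a dashed line at the median of all genes tested. The 10 NRF2 genes have a median of -0.40, and the medians of the wider lists lie between -0.17 and 0.01.

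Among the regulators and partners of NRF2, 12 of 14 genes were tested, with a median log2 fold change of -0.07, or -0.13 without WT replicate 1. *Nfe2l1*, a relative of NRF2 that binds similar elements, had -0.38 (SE 0.12), with an FPKM of 61.1, 84.2 and 80.9 in WT replicates 1 to 3 and of 56.5, 57.7 and 57.0 in KO replicates 1 to 3. *Mafg*, a small MAF partner, had -0.33 (SE 0.12) and *Btrc*, a ubiquitin ligase subunit that can target NRF2, had -0.32 (SE 0.13). All 3 were lower at an unadjusted p under 0.05 and highest in WT replicates 2 and 3, whereas *Dpp3*, the highest of the list, had 0.04 (SE 0.07). The log2 fold changes without WT replicate 1 were -0.53, -0.47 and -0.43 for *Nfe2l1*, *Mafg* and *Btrc* and 0.08 for *Dpp3*. Of the list, 9 genes were below 0 and 3 above, or 8 and 4 with either other scaling of the libraries, in which *Mafk* turned.

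In the glutathione system, 28 of 31 genes were tested, 12 lower and 16 higher, or 13 and 15 under quantile normalization, in which *Gpx4* turned. The median was 0.01 with and without WT replicate 1 and lay on either side of 0 over all alternatives, from -0.06 without KO replicate 3 to 0.04 with median-ratio scaling. The pair of genes that form the cystine importer were at its lower end. *Slc7a11*, the transporting chain, had an FPKM of 0.157, 2.63 and 1.64 in WT replicates 1 to 3 and of 0.222, 0.178 and 0.205 in KO replicates 1 to 3, a log2 fold change of -0.89 (SE 0.39). *Slc3a2*, the heavy chain shared with other amino acid transporters, had 106, 213 and 211 in WT replicates 1 to 3 and 102, 104 and 108 in KO replicates 1 to 3, with -0.68 (SE 0.26). Both followed the order of the 8 targets, with WT replicate 1 within or below the KO range, and *Slc7a11*, like *Srxn1*, passed the filter only through WT replicates 2 and 3. *Glrx3* had -0.28 (SE 0.10). *Mgst1*, a membrane-bound glutathione transferase, ran the other way, with 28.4, 15.5 and 15.1 in WT replicates 1 to 3 and 23.4, 27.5 and 33.6 in KO replicates 1 to 3, and a log2 fold change of 0.54 (SE 0.25). Without WT replicate 1 the log2 fold changes were -1.36 for *Slc7a11*, -1.01 for *Slc3a2*, -0.39 for *Glrx3* and 0.83 for *Mgst1*.

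In the thioredoxin and peroxiredoxin system, all 17 genes were tested, 10 lower and 7 higher, with a median of -0.05, or -0.06 without WT replicate 1, -0.0080 without WT replicate 2 and 0.0094 without KO replicate 2. *Sesn2*, a stress-induced sestrin that restrains mTORC1 signalling, had 11.0, 32.5 and 30.0 in WT replicates 1 to 3 and 10.4, 10.6 and 10.2 in KO replicates 1 to 3, with -1.02 (SE 0.37). Its relative *Sesn1* had 0.38 (SE 0.14) and was lowest in WT replicates 2 and 3. *Msrb3*, a methionine sulfoxide reductase, had 0.43 (SE 0.16) at an FPKM of at most 1.12, and passed the filter only through the KO libraries, where it was higher. Log2 fold changes without WT replicate 1 were -1.50 for *Sesn2*, 0.54 for *Sesn1* and 0.42 for *Msrb3*. The third sestrin, *Sesn3*, had 0.06 (SE 0.08), or 0.05 without that library, so the family held values on both sides of 0. Under median-ratio scaling the split of the list was 9 lower and 8 higher, as *Txn2* turned.

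Of the 5 genes for removal of superoxide and peroxide, 4 were tested, with a median of -0.17, or -0.26 without WT replicate 1. *Sod1*, the cytosolic superoxide dismutase, had 199, 281 and 279 in WT replicates 1 to 3 and 186, 191 and 177 in KO replicates 1 to 3, and a log2 fold change of -0.44 (SE 0.14). WT replicates 2 and 3 were high, and the groups did not overlap. Catalase (*Cat*) had -0.01 (SE 0.05), and its sign turned under both other scalings. *Sod1* had -0.60 and *Cat* -0.02 without WT replicate 1. Among 14 tested of 18 other genes known as NRF2 targets, 7 were lower and 7 higher, or 6 and 8 under both other scalings, in which *Blvra* turned, and the median was 0.01, or -0.04 without WT replicate 1 and -0.03 without KO replicate 3. *Osgin1* had 5.10, 5.33 and 4.56 in WT replicates 1 to 3 and 3.62, 3.85 and 3.55 in KO replicates 1 to 3, with -0.36 (SE 0.09). It differed from the 8 targets in that WT replicate 1 lay between the other WT libraries. *Ftl1*, the ferritin light chain, had -0.40 (SE 0.14), and its reads are uncertain because ferritin genes have many processed pseudogenes. *Ephx1*, an epoxide hydrolase, had 0.19 (SE 0.13), the highest of the list. Without WT replicate 1 the log2 fold changes were -0.35 for *Osgin1*, -0.51 for *Ftl1* and 0.29 for *Ephx1*.

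For the supply of NADPH, which both glutathione and thioredoxin reductase consume, 7 of 8 genes were tested and the median was -0.06, or -0.15 without WT replicate 1. All 7 were lower on the deposited scale, but 6 under median-ratio scaling, in which *Taldo1*, at -0.02 (SE 0.06), turned. The mitochondrial folate enzyme *Mthfd2* had 83.7, 218 and 225 in WT replicates 1 to 3 and 96.4, 85.7 and 79.6 in KO replicates 1 to 3, with -0.87 (SE 0.36). Its cytosolic relative *Mthfd1* had -0.31 (SE 0.13). Both were highest in WT replicates 2 and 3, with WT replicate 1 inside the KO range. Without that library *Mthfd2* had -1.34, *Mthfd1* -0.46 and *Taldo1* -0.02.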

How the data were processed

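RNA of cultured B cells was sequenced in 6 libraries, 3 per genotype, grouped by their titles. The authors filtered paired-end reads, aligned them to mm10 with TopHat, counted reads per gene with HTSeq and deposited FPKM; strand option and annotation release are not given in the sources used here. IDs were named by GENCODE vM21, which held 46488 of the 46983. Reads were recovered from the FPKM as the fewest whole reads that a single gene length allows in all libraries (94.2% to 94.7% of low values were whole within 0.01). KO was tested against WT with limma 3.58.1 (R 4.3.3; lmFit, eBayes with trend) on log2(FPKM + 1) over the 13312 genes whose FPKM averaged 0.5 or more, with Benjamini-Hochberg adjustment and a threshold of 0.05. The same call was tested on simulated data. The rest was done with numpy 2.4.6, pandas 2.3.3 and matplotlib 3.10.9 in Python 3.11.15. The 10 genes and all lists were chosen with earlier results of these data known. Named from the wider lists are the genes with the highest and lowest fold change, those at an unadjusted p under 0.05 and the most abundant marker of each cell type, and the 5 genes most like *Hmox1* and *Nfe2l2*. *Cd5l*, *Fcgr1*, *Cd68*, *Mrc1*, *Ly6c2*, *C1qa*, *Marco*, *Spic*, *Vcam1*, *Siglech*, *Hbb-bt*, *Sesn3*, the genes and markers named as called without WT replicate 1, the B-cell markers besides *Cd74* and the genes whose sign turned were named after their values were seen. The settings varied were the pseudocount (0.1), the filter (genes above 0, or an FPKM averaging 5 or more), the scaling (median-ratio or quantile), the trend (none), library weights, a block on the replicate number, voom on recovered reads, and each library left out.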

Additional observations from a re-analysis of the deposited data

How the results depend on the processing

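The median log2 fold change of the 10 genes lay between -0.59 (without WT replicate 1) and -0.27 (without WT replicate 2) under all alternatives. Between 7 and 10 genes were below 0, 7 being of the 8 genes left at a mean FPKM of at least 5, and *Keap1* lay between -0.0010 (without KO replicate 2) and 0.0592 (without KO replicate 1), its only change of sign; the cause was not tested. With library weights, where WT replicate 1 had the lowest weight (0.238), 1449 genes were called, 7 of the 10 among them. In that fit 4365 genes had an unadjusted p under 0.05, with 8 of the 10, or 7 of 9 without *Srxn1*, among them. The cause was not tested. With all genes above 0, 1412 genes had an unadjusted p under 0.05, and with a mean FPKM of at least 5 there were 616, where more (25717) or fewer (9275) genes were tested. With all genes above 0 the same held for 1 of the 10, and the cause was not tested. Leaving out 1 library gave 0 to 1251 genes called and 241 to 3979 at an unadjusted p under 0.05. Of the 10, 0 to 8 had such a p, or 0 to 7 of 9 without *Srxn1*, where fewer samples entered each fit. The replicate number as a block called 0 genes, with 694 at an unadjusted p under 0.05 and a median of -0.40 for the 10 genes. Deviations of same-numbered libraries correlated at -0.0987, 0.139 and -0.276. In WT, these deviations include the distance of WT replicate 1 from the other WT libraries. Whether the numbers pair the libraries was not tested further.

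*Srxn1* and *Nqo1* have low values in the KO libraries, where the fewest reads that the FPKM allow are 6 to 12 and 22 to 32. A factor common to all libraries cannot be seen in these reads, so they are lower bounds. Fold changes on log2(FPKM + 1) understate the changes of such low genes.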
